A study of Mus musculus with 2 samples.

Results

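Guanylate-binding proteins (GBPs) and immunity-related GTPases (IRGs) are 2 families of GTPases that cells make in response to interferon-gamma. The 10 genes described here were chosen by name from both families, 5 GBPs (Gbp2, Gbp3, Gbp4, Gbp5 and Gbp7) and 5 IRGs (Igtp, Irgm1, Irgm2, Iigp1 and Tgtp2), out of 32285 genes in the files. All 10 were measured in single cells of injured mouse kidneys from 2 libraries, 1 per genotype. The control library came from Cre- mice. The other library came from Cdh5-CreERT2; Phd3f/+ mice, in which the Cdh5 promoter drives a tamoxifen-inducible Cre in endothelial cells and 1 allele of Phd3 (the oxygen-sensing prolyl hydroxylase PHD3, gene symbol Egln3) is floxed; it is called haplodeficient here. Both groups underwent ischemia-reperfusion injury (IRI) by clamping of 1 renal artery, then received 4 tamoxifen injections, and the injured kidneys were taken on day 14 after injury. The labels placed both libraries in batch 1 and gave neither the age of the mice nor how many were used per library. The Cre allele was present in 1 group only, so an effect of Cre itself and of the Phd3 allele cannot be told apart. With 1 library per group there was no replicate check and no test between genotypes, and every interval below covers counting error only.

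Interferon-gamma is made mainly by T cells and natural killer cells. It binds a receptor on most other cells and signals to the nucleus, where transcription factors such as IRF1 help to switch on both families. GBPs gather on the membranes of vacuoles that hold pathogens and on bacteria in the cytosol, and help to open them and to start caspase-dependent signalling. IRGs fall in 2 kinds. The effectors Iigp1 (Irga6) and Tgtp2 (Irgb6 family) bind to the vacuole membrane, and the regulators Irgm1, Irgm2 and Igtp (Irgm3) sit on the cell's own membranes and keep the effectors inactive there.

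Of the 10 genes, Gbp2, Gbp3, Gbp5 and Gbp7 lie next to each other on mouse chromosome 3, between positions 142493978 and 142638008 of GRCm38 (GENCODE M21), all on the plus strand. Gbp4 lies on the minus strand of chromosome 5 (105115767 to 105139586) and overlaps Gbp8 and Gbp9 on that strand. On chromosome 11, Irgm1 (48861968 to 48871683) and Tgtp2 (49057194 to 49064206) lie on the minus strand, while Igtp (58199556 to 58207591) and Irgm2 (58199618 to 58222782) overlap each other on the plus strand. Because the assay reads 90 bases near the 3′ end of a transcript, every 90-base window in the last 500 bases of each gene's transcripts was compared with those of the other genes. For Tgtp2 100% of the windows were shared with its near-identical neighbour Tgtp1, so its counts are uncertain. For Gbp4 8.22% of the windows were shared with other GBPs, for Gbp3 0.450% with Gbp7, and for the other 7 genes none. The counts of Igtp and Irgm2, which overlap on 1 strand, and of Gbp4 are uncertain for the same reason of position.

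Promoter sequence was at hand for 8 of the 10 genes (RefSeq, GRCm38.p6), and is shown because the members were chosen as interferon-gamma targets. Each window of 250 bases before to 50 bases after a start was searched on both strands for the gamma-activated site of interferon-gamma target genes (TTCNNNGAA, where N is any base) and for the interferon-stimulated response element bound by IRF factors (GAAANNGAAA). All 8 genes held the second element in at least 1 promoter, against 3.44% of 32851 promoters of the same length, and 5 of the 8 also held the first, against 8.30%. These genes had 9 promoters, since Gbp3 had 2, and its second promoter held neither element. Both elements together occurred in 0.454% of promoters. No match to 1 motif overlapped a match to the other. The 120 bases before the start are given below for 6 genes, 5′ to 3′ on the gene's own strand, with matches to either motif in capitals; a response element on the opposite strand starts with TTTC.
Gbp2 (chr3:142620543-142620662, plus strand): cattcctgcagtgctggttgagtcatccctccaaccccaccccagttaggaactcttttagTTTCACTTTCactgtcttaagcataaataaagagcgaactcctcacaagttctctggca
Gbp7 (chr3:142530216-142530335, plus strand): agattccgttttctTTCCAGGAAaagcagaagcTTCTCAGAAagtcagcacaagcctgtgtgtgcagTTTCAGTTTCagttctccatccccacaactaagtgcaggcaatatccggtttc
Igtp (chr11:58199436-58199555, plus strand): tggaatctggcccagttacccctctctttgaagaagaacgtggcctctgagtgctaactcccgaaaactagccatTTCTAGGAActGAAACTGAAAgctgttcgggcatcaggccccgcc
Irgm2 (chr11:58214857-58214976, plus strand): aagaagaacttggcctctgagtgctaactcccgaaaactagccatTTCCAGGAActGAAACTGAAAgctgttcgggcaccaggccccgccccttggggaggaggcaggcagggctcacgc
Tgtp2 (chr11:49064213-49064332, minus strand): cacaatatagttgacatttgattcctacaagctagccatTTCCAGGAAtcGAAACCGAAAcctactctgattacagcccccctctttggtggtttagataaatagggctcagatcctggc
Irgm1 (chr11:48871421-48871540, minus strand): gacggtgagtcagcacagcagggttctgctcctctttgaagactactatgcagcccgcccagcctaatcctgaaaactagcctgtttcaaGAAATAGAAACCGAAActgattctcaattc
In Igtp, Irgm2 and Tgtp2 a gamma-activated site stood directly before a response element, with both elements starting 45 and 34, 75 and 64, and 81 and 70 bases before the start. Irgm1 held 2 overlapping response elements, at 30 and 24 bases, and no gamma-activated site in this window. Gbp2 held a single response element at 59 bases. Gbp7 held 2 gamma-activated sites, at 106 and 87 bases, and a response element at 53. A match is only a match of letters, and binding was not measured here.

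The libraries held 134190236 (control) and 114668145 (haplodeficient) unique molecular identifiers (UMIs, each 1 captured RNA molecule), of which 27324 and 44115 belonged to the 10 genes. After filters and removal of likely doublets, 8737 and 9222 cells remained, with a median of 8762 and 5472 UMIs and of 10.2% and 2.69% mitochondrial UMIs. The libraries shared 23 cell barcodes among these cells. The cells fell into 41 clusters, which gave 19 classes named from marker genes; 15 classes had at least 100 cells in each library and were compared, and 8.78% and 8.95% of cells stayed unnamed. The targeted gene Egln3 had 58 and 110 UMIs in endothelial-like cells, 24.4 and 21.1 CPM, a ratio of 0.867 (95% interval 0.625 to 1.21). A 3′ tag may lie outside the deleted part of the gene, so that value does not check the label. Levels are given in CPM, the UMIs of a gene over all UMIs of a class in 1 library, scaled to a common total. Since the method counts 3′ ends, a longer gene does not gain counts, and levels of different genes may be set side by side as molecules captured.

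Endothelial-like cells held the highest summed level of the 10 genes, 2153 CPM in the control and 2146 CPM in the haplodeficient library, and Iigp1 made up 73.0% and 67.4% of their member UMIs. In fibroblast-like cells, next in the control order, the sums were 897 and 849 CPM, and Iigp1 again made up 75.9% and 72.4%. Thin limb-like cells followed with 394 and 602 CPM, then T cell-like cells with 336 in both libraries. At the other end were proximal tubule-like cells (113 and 148 CPM), distal convoluted tubule-like cells (76.8 and 171 CPM) and thick ascending limb-like cells (63.0 and 129 CPM). Control values of neighbours in the middle of the order lay close together: dendritic cell-like 207, intercalated cell-like 204, pericyte or smooth muscle-like 185, Wt1-positive glomerular epithelium-like 173 and macrophage-like 168 CPM.

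**Figure D1:**
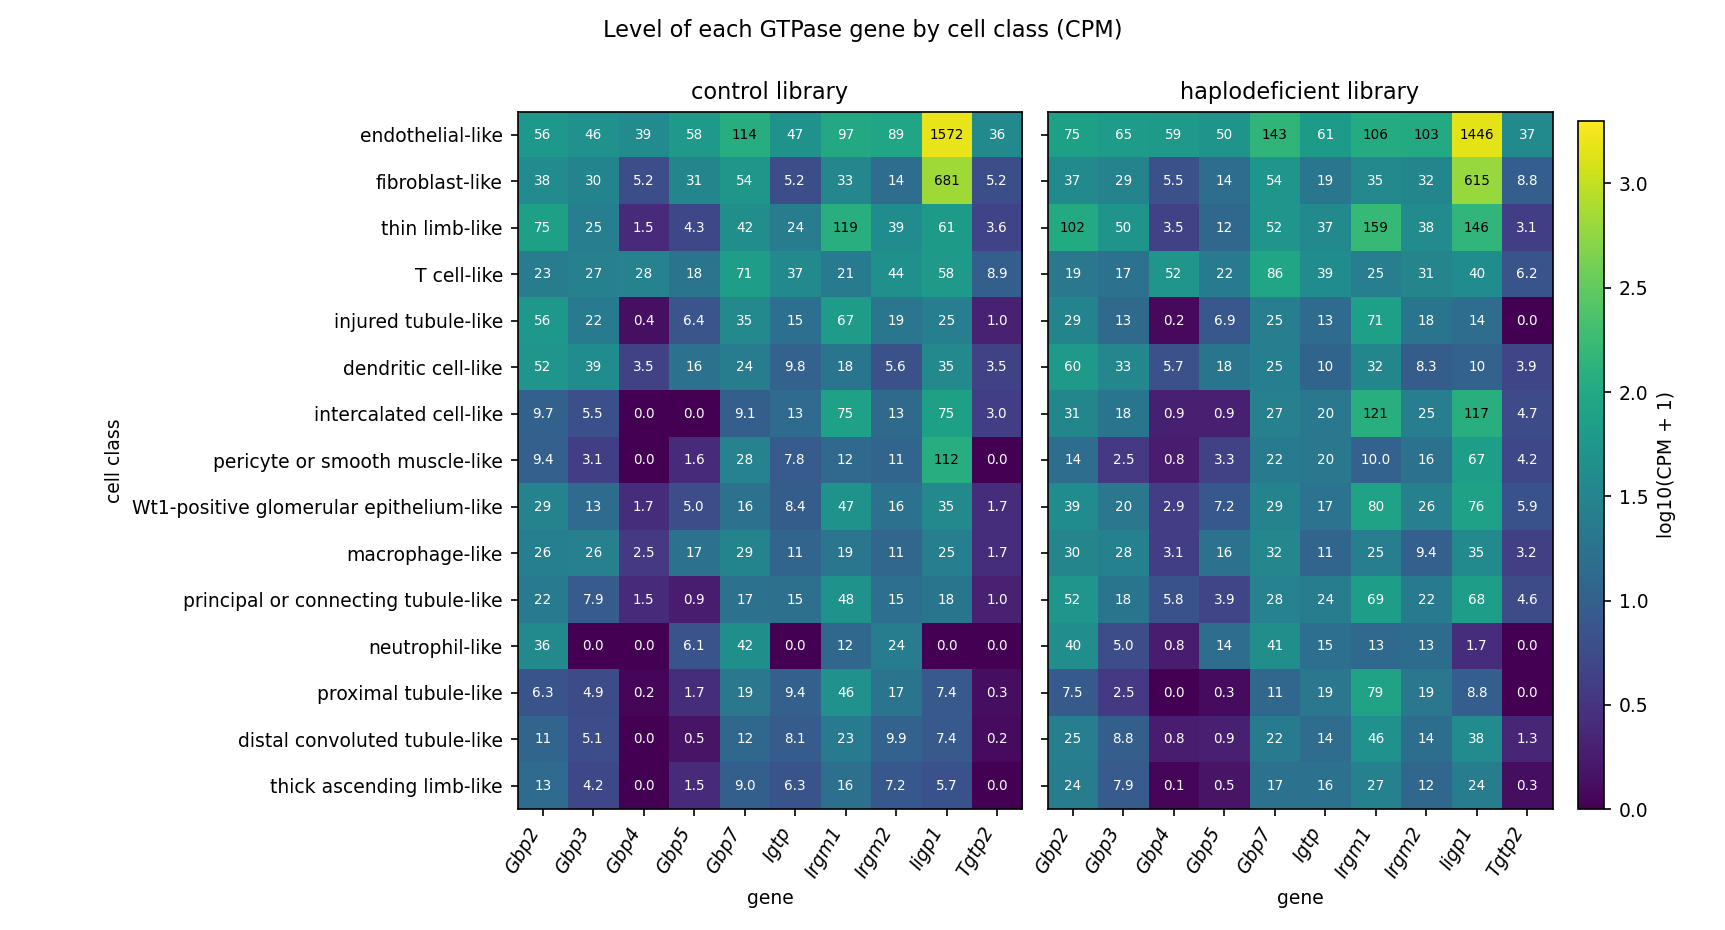
Level of each of the 10 genes (columns) in 15 cell classes (rows, ordered by control sum), in the control (left) and haplodeficient (right) library; cell numbers are CPM and colour is log10(CPM + 1). Iigp1 in endothelial-like cells (1572 and 1446 CPM) and fibroblast-like cells (681 and 615 CPM) stands above every other entry in both libraries.

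The genes did not share a single order over the classes. Endothelial-like cells led for 8 of the 10 genes in both libraries, whereas Gbp2 and Irgm1 were highest in thin limb-like cells: Gbp2 at 75.0 and 102 CPM against 56.3 and 75.0 CPM in endothelial-like cells, and Irgm1 at 119 and 159 CPM against 97.0 and 106 CPM. Irgm1, the regulator, was also the main member of proximal tubule-like cells (46.1 and 79.5 CPM), where the effector Iigp1 stood at 7.43 and 8.77 CPM. Iigp1 itself lies on chromosome 18, apart from the other members. T cell-like cells held more Gbp7 (70.8 and 86.4 CPM) than any other member. Iigp1 had 0 and 2 UMIs in neutrophil-like cells, which kept Gbp2 at 36.4 and 40.4 CPM and Gbp7 at 42.4 and 41.2 CPM. Across the 30 class-by-library points, the correlation between 2 members' log2(CPM + 5) ran from 0.027 (Gbp5 and Irgm1) to 0.852 (Gbp4 and Tgtp2). These points share 2 libraries and their depth, and the values only describe the pattern.

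Within endothelial-like cells, which in this model are the cells meant to carry the recombined allele, the summed level was the same in both libraries within counting error, with a ratio of 0.997 (0.964 to 1.03) over 361 and 791 cells. The sum hid opposite values, however. Iigp1 stood at 1572 and 1446 CPM, with a ratio of 0.920 (0.884 to 0.957). Its log2 ratio of −0.12 was 0.06 with each library clustered on its own. The other 9 genes together stood at 581 and 700 CPM, a ratio of 1.20 (1.13 to 1.28). Among the GBPs, Gbp4 was 38.6 and 59.5 CPM (1.54, 1.22 to 1.97), Gbp3 46.2 and 64.9 (1.40, 1.13 to 1.76), Gbp2 56.3 and 75.0 (1.33, 1.09 to 1.64) and Gbp7 114 and 143 (1.25, 1.09 to 1.45), while Gbp5 was 57.5 and 50.3 (0.874, 0.708 to 1.08). Of the regulators, Igtp was 46.6 and 61.4 CPM (1.32, 1.06 to 1.65), Irgm2 88.6 and 103 (1.16, 0.986 to 1.36) and Irgm1 97.0 and 106 (1.09, 0.935 to 1.28). Of the 10 genes, 5 had an interval above 1 and 1 below, against 15.1% and 16.3% of genes of at least 10 CPM and 10 UMIs in this class. None reached a 2-fold difference, and only 0.16% and 0.691% of genes in these cells met the size rule set out below, higher and lower. Cdh5, the gene whose promoter drives Cre, stood at 697 and 709 CPM.

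The endothelial-like cells split into 7 subclusters, and levels differed far more between vessel types than between genotypes. Venous-like cells, led by the adhesion molecules Selp and Sele, held the highest sum, 5277 CPM over 19 control cells and 4930 CPM over 34 haplodeficient cells. Their subcluster had only 3 of 7 venous markers detected, and also 3 of 6 capillary ones. Glomerular-like cells of subcluster 4 held 3025 and 3518 CPM (29 and 76 cells), and those of subcluster 6, led by Magi2 and Sfrp2, held 2829 and 2903 CPM (13 and 28 cells). Capillary-like cells, led by Rgcc with 3 of 6 capillary markers detected but also 5 of 7 venous ones, held 2640 and 2441 CPM (84 and 262 cells). Descending vasa recta-like cells held 1939 and 1301 CPM (90 and 160 cells), arterial-like cells 1472 and 1041 CPM (55 and 75 cells), and the unnamed subcluster led by Calca 1275 and 1156 CPM (71 and 156 cells). The ratio interval lay below 1 in descending vasa recta-like cells (0.671, 0.621 to 0.725) and arterial-like cells (0.708, 0.634 to 0.789), and above 1 in the glomerular-like cells of subcluster 4 (1.16, 1.07 to 1.26).

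In descending vasa recta-like and arterial-like cells the difference lay mostly in Iigp1. In the glomerular-like cells of subcluster 4, Iigp1 and the other genes both added to it in CPM. Relative to their level, the other genes differed more there than Iigp1. Iigp1 stood at 1337 and 730 CPM in descending vasa recta-like cells, at 966 and 544 CPM in arterial-like cells and at 1848 and 1427 CPM in capillary-like cells, but at 2546 and 2813 CPM in the glomerular-like cells of subcluster 4. Without Iigp1 the sums in descending vasa recta-like cells were 602 and 571 CPM and in arterial-like cells 506 and 497 CPM. In capillary-like cells they were 792 and 1014 CPM, and in the glomerular-like cells of subcluster 4 478 and 705 CPM. Gbp7 in capillary-like cells was 142 and 225 CPM, and Gbp4 there was 61.2 and 103 CPM. Vessel types took different shares of the endothelial-like cells in each library: capillary-like cells 23.3% and 33.1%, descending vasa recta-like cells 24.9% and 20.2%, arterial-like cells 15.2% and 9.48%. With the same weight in both libraries for each cluster of this class, the ratio over all endothelial-like cells was 0.881. Those clusters came from the clustering of all cells, and no such ratio was computed for the subclusters.

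**Figure D2:**
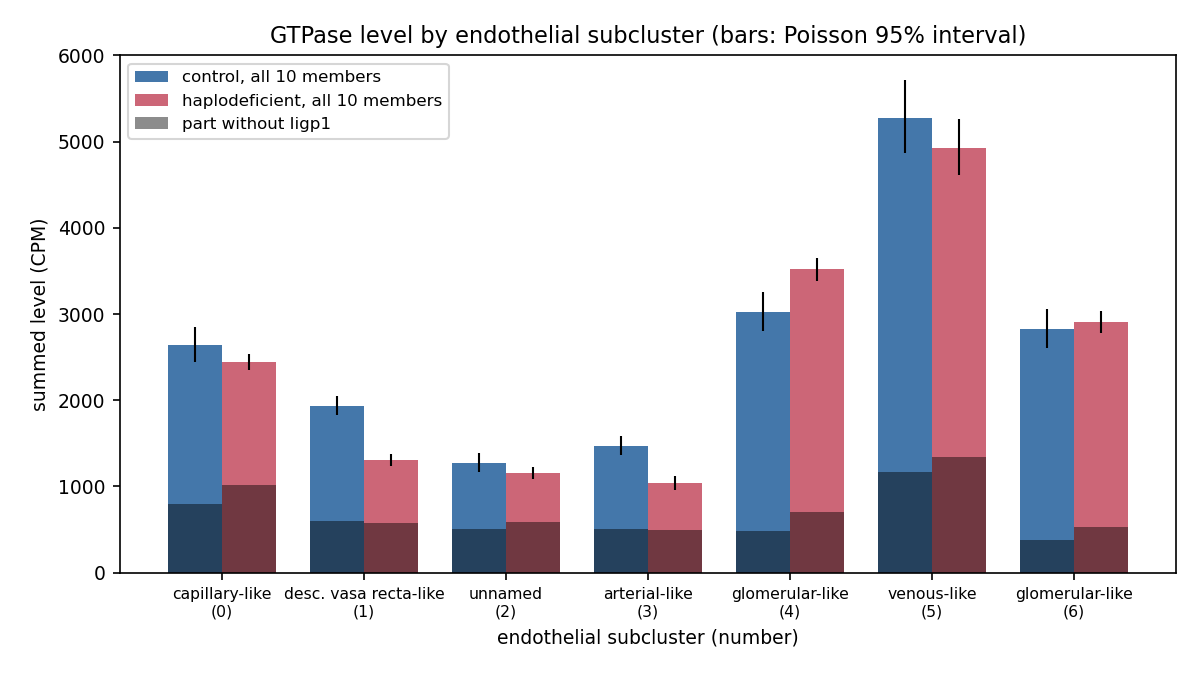
Summed level of the 10 genes (y axis, CPM) in 7 endothelial subclusters (x axis), control and haplodeficient bars side by side with 95% Poisson intervals, and the part without Iigp1 shaded dark. The venous-like pair is highest (5277 and 4930 CPM), and the shaded parts, from 374 to 1340 CPM, differ less than the full bars.

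Outside the endothelium, the summed level was higher in the haplodeficient library in most nephron segments beyond the proximal tubule. The ratio of summed CPM was 2.23 (2.02 to 2.46) in distal convoluted tubule-like cells, 2.05 (1.87 to 2.25) in thick ascending limb-like cells, 2.02 (1.86 to 2.19) in principal or connecting tubule-like cells, 1.79 (1.54 to 2.08) in intercalated cell-like cells, 1.74 (1.54 to 1.98) in Wt1-positive glomerular epithelium-like cells and 1.53 (1.45 to 1.60) in thin limb-like cells. It was 1.31 (1.20 to 1.43) in proximal tubule-like cells and 1.15 (1.06 to 1.25) in macrophage-like cells. In these 8 of 15 classes the interval lay above 1. Injured tubule-like cells, which express the injury markers Havcr1 and Vcam1, were the only class with an interval below 1, at 0.779 (0.718 to 0.845). The intervals of the endothelial-like, fibroblast-like, T cell-like, dendritic cell-like, neutrophil-like and pericyte or smooth muscle-like classes held 1.

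**Figure D3:**
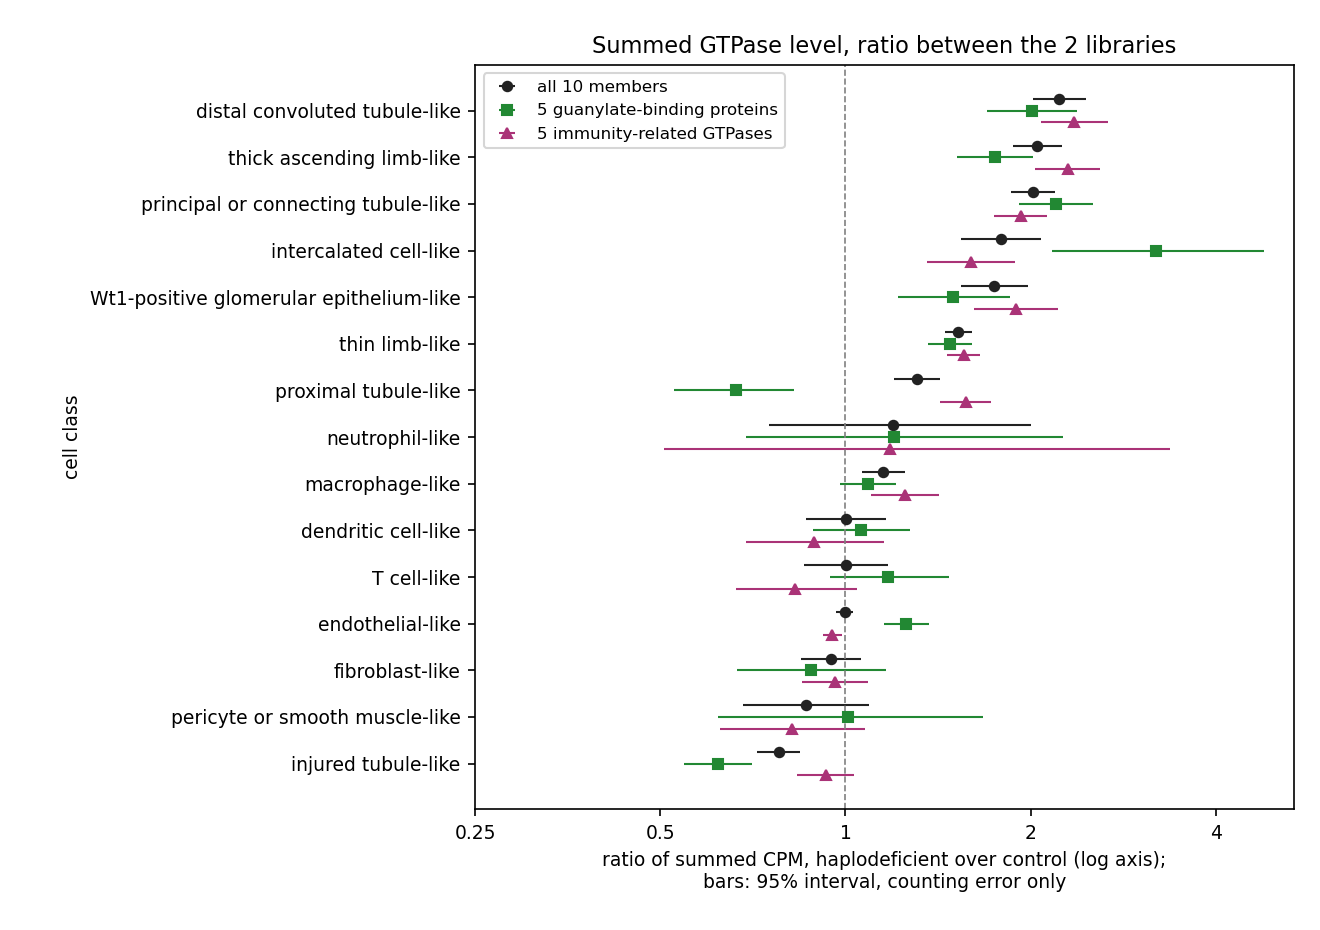
Ratio of summed CPM, haplodeficient over control (x axis, log scale), in 15 classes (y axis) for all 10 genes, the 5 GBPs and the 5 IRGs, with 95% intervals for counting error. All 3 sums lie above 1 in the thick ascending limb-like, distal convoluted tubule-like, principal or connecting tubule-like, thin limb-like, intercalated cell-like and Wt1-positive classes, and in proximal tubule-like cells the GBPs (0.663) and the IRGs (1.57) lie on opposite sides.

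A gene was counted as higher or lower in a class where the ratio of CPM + 5 was at least 2-fold and the 95% Poisson intervals of both levels did not overlap, among genes that averaged 50 CPM or more over both libraries and had 30 or more UMIs. Of the 150 pairs of a member and a class, 23 reached that level, and 2 were higher: Iigp1 in thin limb-like cells and Iigp1 in Wt1-positive glomerular epithelium-like cells. The second was not met with a minimum of 1000 UMIs per cell or with free RNA taken off, where its log2 ratio fell just short of 1 (0.99 in the latter). None was lower. Over all genes and classes, 0.805% of 50564 pairs were higher and 1.26% lower. In the classes whose genes are named here, the shares higher and lower were 0.447% and 0.842% in thin limb-like, 0.581% and 2.09% in Wt1-positive, 1% and 1.06% in distal convoluted tubule-like, 1.54% and 1.34% in proximal tubule-like, 0.555% and 0.526% in injured tubule-like, 0.324% and 0.612% in macrophage-like and 0.8% and 1.63% in T cell-like cells. With the level set at 10 CPM and 10 UMIs instead, 103 pairs qualified and 9 were higher, against 0.824% of 127968 pairs over all genes, and 1 was lower, against 1.27%. The 9 were Iigp1 in thin limb-like, Wt1-positive, distal convoluted tubule-like, thick ascending limb-like and principal or connecting tubule-like cells, Gbp2, Gbp3 and Gbp7 in intercalated cell-like cells, and Gbp2 in principal or connecting tubule-like cells. The 1 lower pair was Iigp1 in dendritic cell-like cells. Of the 103, 48 had a ratio interval above 1 (20.1% over all genes) and 9 below (16.5%). Over all 150 pairs, 111 had a log2 ratio above 0, but many of the low genes carried few UMIs. The share of all genes above 0 was not computed, so this count has no background. The median over all genes of 50 CPM was itself above 0 in some classes, such as 0.20 in proximal tubule-like and 0.13 in thick ascending limb-like cells.

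**Figure D4:**
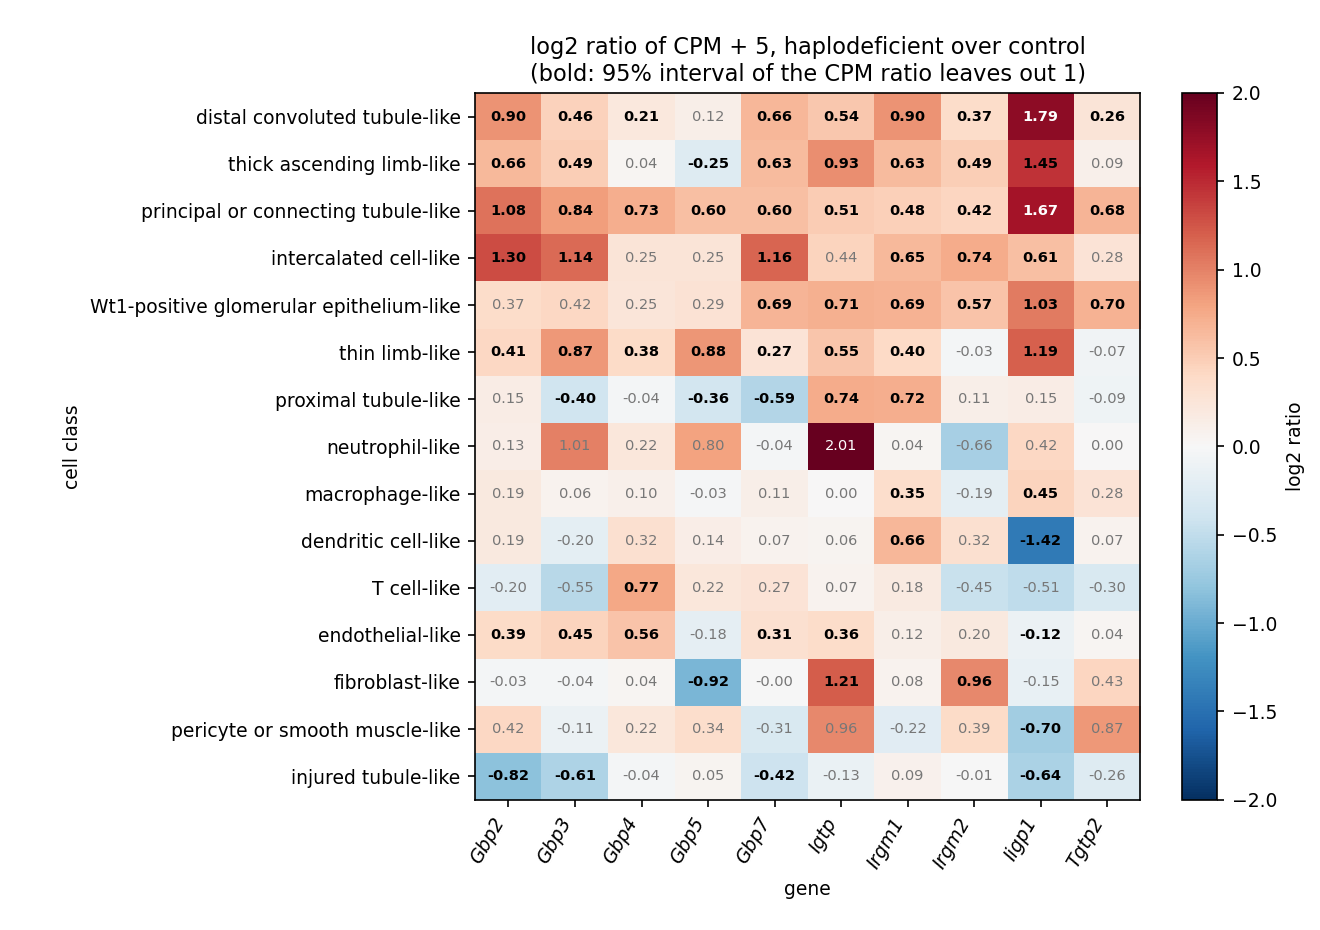
log2 ratio of CPM + 5, haplodeficient over control, for 10 genes (columns) in 15 classes (rows, highest summed ratio on top); bold numbers mark a 95% ratio interval that excludes 1. Iigp1 has the highest single value among bold entries, 1.79, in the distal convoluted tubule, and the lowest, −1.42, in dendritic cell-like cells.

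The distal convoluted tubule-like class (669 and 491 cells) had Iigp1 at 7.40 CPM (61 UMIs) and 37.7 CPM (239 UMIs), a ratio of 5.10 (3.84 to 6.87). Irgm1 was 22.6 and 46.3 CPM (2.05, 1.70 to 2.48), Gbp2 10.9 and 24.8 (2.27, 1.74 to 2.98) and Gbp7 12.0 and 21.9 (1.83, 1.40 to 2.39). All 6 members of at least 10 CPM had an interval above 1, against 32.2% of all such genes in this class (17.5% below), and the median log2 ratio was 0.50 over the 10 members and 0.10 over all genes of 50 CPM. The class joined cluster 8 (486 and 283 cells), at a summed 75.4 and 172 CPM (2.28, 2.05 to 2.52), with the shallow cluster 18 (183 and 208 cells, median 1568 UMIs), at 107 and 165 CPM (1.54, 1.05 to 2.30). In thick ascending limb-like cells (563 and 566 cells), Iigp1 was 5.69 and 24.2 CPM (4.24, 3.19 to 5.73) and Igtp, a regulator, 6.30 and 16.5 CPM (2.61, 1.97 to 3.51), whereas Gbp5 was 1.52 and 0.472 CPM (15 and 7 UMIs). The 5 members of 10 CPM all had an interval above 1, against 41.5% of genes in these cells (18.6% below). The median log2 ratio there was 0.56 over the members and 0.13 over all genes.

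Principal or connecting tubule-like cells (468 and 580 cells) had Iigp1 at 18.1 and 68.4 CPM (3.77, 3.05 to 4.70) and Gbp2 at 22.1 and 52.3 CPM (2.37, 1.93 to 2.92). Each of the 10 genes had an interval above 1 in these cells, and the 7 of at least 10 CPM stood against 26.4% of genes (25.2% below). Of the control cells in this class, 148 of 468 belonged to cluster 29, which held 7 haplodeficient cells. Within cluster 6, which held the others, the summed level was 167 and 298 CPM, a ratio of 1.78 (1.63 to 1.95). In intercalated cell-like cells (172 and 106 cells), the acid- or base-secreting cells of the collecting duct, the GBPs together stood at 24.3 and 77.7 CPM (3.19, 2.16 to 4.79) and the IRGs at 179 and 287 CPM (1.60). Gbp2 there was 9.73 and 31.3 CPM from 16 and 33 UMIs. The intervals of 6 of 7 members of 10 CPM lay above 1, against 16.4% of genes (11.7% below).

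Thin limb-like cells (357 and 660 cells) had the deepest counts of the 10 genes among these segments. Their cluster was led by the thin limb genes Slc14a2, Fst and Bst1, but beside 5 of 9 thin limb markers it also had 5 of 7 injured tubule markers detected, as against 4 of 7 in the injured tubule-like cluster. Iigp1 stood at 61.1 and 146 CPM (359 and 1298 UMIs), a ratio of 2.39 (2.13 to 2.69). Gbp3 had 147 and 443 UMIs (1.99, 1.65 to 2.42) and Gbp5 4.25 and 12.0 CPM (2.83, 1.82 to 4.57). Irgm1, at 119 and 159 CPM, had a ratio of 1.34 (1.22 to 1.47), and its relative Irgm2, at 38.8 and 37.8 CPM, one of 0.974 (0.821 to 1.16). The interval lay above 1 for 6 of the 7 members of 10 CPM and for 21.1% of genes (26.6% below). In Wt1-positive glomerular epithelium-like cells (121 and 311 cells), a class of podocyte and parietal epithelial markers, Iigp1 was 34.6 and 75.9 CPM (2.20, 1.67 to 2.93) and Irgm1 47.4 and 79.5 CPM (1.68, 1.32 to 2.15). There 5 of 7 members of 10 CPM had an interval above 1, against 15.3% of genes (16.5% below). This class joined cluster 19 (85 and 277 cells), at a summed 197 and 296 CPM (1.50, 1.28 to 1.78), with cluster 37 (36 and 34 cells). Cluster 37 was led by division genes such as Top2a and Mki67, with 5 of 11 class markers and 3 injured tubule markers detected. It stood at 151 and 325 CPM (2.15, 1.75 to 2.65).

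The Iigp1 UMIs of these epithelial classes came from few cells, so the counting intervals, which treat each UMI as independent, are too narrow for it. In thick ascending limb-like cells, 11 of 563 control cells and 54 of 566 haplodeficient cells held any Iigp1 UMI, 1.95% and 9.54% of cells, and the 5 cells with most held 83.9% and 47.5% of its UMIs. The distal convoluted tubule-like class had 23 such cells of 669 and 42 of 491 (3.44% and 8.55%), and the 5 top cells held 62.3% and 60.3% of the UMIs. In principal or connecting tubule-like cells 10.0% and 18.3% of cells held 1, in thin limb-like cells 15.4% and 25.6%, and in Wt1-positive cells 12.4% and 16.4%. Dendritic cell-like cells, where Iigp1 was 35.2 and 10.0 CPM, had all 50 of its control UMIs in 5 cells, 34 of them in 1 cell, while 11 haplodeficient cells held 23. In endothelial-like cells, by contrast, 72.3% and 69.9% of cells held Iigp1 and the 5 top cells held 13.8% and 12.0% of its UMIs.

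Cells with at least 3 Iigp1 UMIs, a limit set after seeing the data, were deeper than the others in the nephron classes given here and also held more of the other 9 genes. Such a limit by itself favours deep cells. In haplodeficient thin limb-like cells, 82 of 660 cells had 3 or more, with a median of 24496.5 UMIs against 7917 in the others, and the other 9 genes stood at 875 CPM in them against 309 CPM. The 24 such control cells held 841 CPM against 249 CPM. In thick ascending limb-like cells, 6 control and 23 haplodeficient cells held 495 and 581 CPM of the other genes, against 46.9 and 71.1 CPM in the remaining cells. In proximal tubule-like cells, 18 control cells held 1103 CPM against 95.4 CPM. In principal or connecting tubule-like cells the values were 297 and 628 CPM (10 and 42 cells), against 120 and 161 CPM. The endothelial markers given below stood at 324 against 39.96 CPM (control) and 133 against 46.3 (haplodeficient) in thick ascending limb-like cells. They were 28.6 against 52.3 and 235 against 82.4 in distal convoluted tubule-like, and 51.7 against 52.5 and 116 against 45.4 in thin limb-like cells. Proximal tubule-like cells had 61.02 against 8.17 and 13.18 against 13.03, principal or connecting tubule-like cells 44.5 against 40.7 and 84.98 against 53.997. Whether endothelial RNA or remaining doublets had a part in the cells with 3 or more Iigp1 UMIs was not tested. The share of cells with 3 or more Iigp1 UMIs was 1.07% and 4.06% in thick ascending limb-like, 0.747% and 2.85% in distal convoluted tubule-like, 2.14% and 7.24% in principal or connecting tubule-like and 6.72% and 12.4% in thin limb-like cells. The median depth of these classes in the control and haplodeficient library was 13672 and 18521, 9250 and 7096, 8745 and 8140, and 9952 and 8523 UMIs, so it was higher in the haplodeficient library in the thick ascending limb-like class and lower in the other 3.

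Markers of endothelial cells, the richest source of Iigp1, were present in these classes at low levels. The 12 markers summed to 52.0 and 95.5 CPM in distal convoluted tubule-like cells, 46.6 and 52.1 in thick ascending limb-like, 40.9 and 58.4 in principal or connecting tubule-like, 52.4 and 63.7 in thin limb-like, 50.2 and 137 in Wt1-positive and 34.0 and 16.1 in intercalated cell-like cells, against 9384 and 10034 CPM in endothelial-like cells. Had those markers come with endothelial-like RNA in proportion, the haplodeficient Iigp1 level would be 13.8 CPM in distal convoluted tubule-like cells (37.7 measured), 7.51 in thick ascending limb-like (24.2 measured), 8.42 in principal or connecting tubule-like (68.4 measured) and 9.18 in thin limb-like cells (146 measured). In the control the same amounts were 8.72 (7.40 measured), 7.80 (5.69 measured), 6.85 (18.1 measured) and 8.78 CPM (61.1 measured), so control Iigp1 in distal convoluted tubule-like and thick ascending limb-like cells was no higher than this amount. With such parts taken off, the ratio of the summed levels was 2.32, 2.26, 2.06 and 1.54 in the same 4 classes, 1.69 in Wt1-positive and 1.84 in intercalated cell-like cells. In the first 2 of these classes more Iigp1 was taken off the control than was measured, which pushes their ratios up. The amounts also assume average endothelial-like RNA, while Iigp1 ran from 544 to 4113 CPM over the subclusters. These ratios therefore cannot show what part endothelial RNA had, which was not tested. The 11 T-cell markers were also higher in haplodeficient tubule classes, for example 4.61 and 12.5 CPM in distal convoluted tubule-like and 7.53 and 23.8 CPM in principal or connecting tubule-like cells, against 6091 and 7092 CPM in T cell-like cells. The 10 macrophage markers were 38.9 and 153 CPM in intercalated cell-like cells (3.94, 2.94 to 5.35), 571 and 1029 in proximal tubule-like (1.80), 187 and 244 in distal convoluted tubule-like (1.31), 224 and 278 in Wt1-positive (1.24), 302 and 312 in thin limb-like (1.03), 236 and 225 in thick ascending limb-like (0.952) and 289 and 189 in principal or connecting tubule-like cells (0.656). Macrophage-like cells held 48509 and 55009 CPM of them, beside 168 and 193 CPM of the members. The part of these cells in the member levels was not tested. By the makeup of barcodes of at most 100 UMIs, free RNA made up an estimated 12.7% and 9.03% of the member UMIs in distal convoluted tubule-like cells and 10.3% and 7.53% in thick ascending limb-like cells, and over the 15 classes the estimates ran from 0.418% to 12.7%.

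Proximal tubule-like cells showed the families on opposite sides. The 5 GBPs stood at 32.5 and 21.6 CPM (0.663, 0.527 to 0.825) and the 5 IRGs at 80.7 and 127 CPM (1.57, 1.43 to 1.72). Irgm1 was 46.1 and 79.5 CPM (1.72, 1.52 to 1.94) and Igtp 9.36 and 19.1 CPM (2.04, 1.57 to 2.61), while Gbp7 was 19.5 and 11.3 CPM (0.579, 0.419 to 0.783) and Gbp3 4.89 and 2.51 CPM (0.513, 0.242 to 0.965). Iigp1 was 7.43 and 8.77 CPM (1.18, 0.806 to 1.68). The background in this class was wide: 47.8% of genes of 10 CPM had an interval above 1 and 9.88% below, beside 2 and 1 of 4 members, and the median log2 ratio was 0.20 over all genes and 0.04 over the 10 members. The libraries differed here in number and kind of cells, 3066 control against 332 haplodeficient, and clusters 20 and 21, led by Slc7a13 and Kap, held 348 and 334 control cells against 5 and 7. In cluster 2, which held 160 of the 332 haplodeficient cells, the summed level was 142 and 163 CPM (1.15, 1.04 to 1.27). Stress genes that respond to tissue dissociation moved with this class: 6 of 13 of sufficient level (Fos, Fosb, Jun, Jund, Atf3 and Dusp1) met the size rule, higher, and their part in the member levels was not tested. In thick ascending limb-like cells 15 of 17 stress genes had a log2 ratio above 0 (median 0.41, against 0.13 over all genes). It was 13 of 17 in distal convoluted tubule-like (0.22 against 0.10), 9 of 17 in principal or connecting tubule-like (0.02) and 5 of 17 in thin limb-like cells (−0.12). None met the size rule in these classes, and their part there was not tested either.

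In injured tubule-like cells (522 and 298 cells) it was the GBPs that lay lower, at 120 and 74.5 CPM (0.621, 0.546 to 0.705), beside IRGs at 126 and 117 CPM (0.929, 0.834 to 1.03). Gbp2 was 55.7 and 29.5 CPM (0.529, 0.432 to 0.645), Gbp3 22.2 and 12.8 (0.576, 0.419 to 0.781), Gbp7 35.2 and 25.1 (0.714, 0.568 to 0.893) and Iigp1 24.8 and 14.2 (0.571, 0.422 to 0.763). Irgm1, at 66.7 and 71.3 CPM, and Irgm2, at 18.5 and 18.3 CPM, had ratios of 1.07 and 0.987. The intervals of 4 of 7 members of 10 CPM lay below 1 and none above, against 21.9% and 21.5% of genes. Of the 201 control Iigp1 UMIs, 60.2% came from 5 cells, and 1 cell held 55. Socs3, an inhibitor of cytokine signalling, was 132 and 34.5 CPM in this class (0.261) and met the size rule, lower. The summed ratio depended on how the cells were clustered: it was 1.13 at a Leiden resolution of 2 and 0.997 with doublets kept. The log2 ratio of Iigp1, −0.64, was 0.62 and 0.11 under these settings and −0.05 after thinning.

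T cell-like cells (178 and 1038 cells) expressed the members at the same summed level in both libraries, with a ratio of 1.00 (0.857 to 1.17). Gbp4 was 28.3 and 51.8 CPM (16 and 166 UMIs), a ratio of 1.83 (1.09 to 3.27), and was the 1 of 9 members of 10 CPM with an interval above 1, against 8.48% of genes (14.2% below). The GBPs together were 166 and 196 CPM (1.17) and the IRGs 170 and 141 CPM (0.829). Macrophage-like cells (820 and 1400 cells) held 168 and 193 CPM of the 10 genes, with Iigp1 at 24.6 and 35.3 CPM (1.44, 1.17 to 1.77) and Irgm1 at 18.6 and 25.1 CPM (1.35, 1.07 to 1.73), the 2 of 8 members of 10 CPM with an interval above 1, against 18.8% of genes (25.8% below). The macrophage sum lay at 0.978 after each cell was thinned to 1000 UMIs. Cxcl9, a T-cell-attracting chemokine and interferon-gamma target, was 20.9 and 84.8 CPM in macrophage-like cells (4.06, 3.32 to 5.00) and met the size rule, higher. Bst2, which tethers virus particles, was 222 and 549 CPM (2.48) and met it too.

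The ligand of the pathway, Ifng, was counted 65 times in 34 control cells and 1077 times in 319 haplodeficient cells, and 78.5% and 91.0% of its UMIs lay in T cell-like cells. Its level in that class was 90.3 and 306 CPM, a ratio of 3.38 (2.55 to 4.58), and it met the size rule. Dissociation stress genes moved with this class: 9 of 11 of sufficient level had a log2 ratio above 0, with a median of 0.53 against −0.05 over all genes, and Fos (108 and 301 CPM, 2.79) met the size rule. Their part in the Ifng level was not tested. The share of T cell-like cells with an Ifng UMI was 8.05% (4.47 to 13.1) and 15.4% (13.2 to 17.8) at 1000 UMIs per cell, and 14.6% and 26.0% unthinned. By cluster, Ifng stood at 45.1 and 310 CPM in cluster 12, led by Cd40lg, Ctla4 and Icos (89 and 471 cells), and at 208 and 460 CPM in cluster 16, led by Cd8b1 and Nkg7 (56 and 402 cells). Cluster 30, led by Il17a and Trdc, held 0 and 1 UMI. The NK cell-like cluster stood at 137 and 140 CPM, from 10 and 55 UMIs. Of the genes that drive Ifng, the receptor subunits Il12rb2 (150 and 58.0 CPM, 0.385) and Il18rap (95.6 and 40.5 CPM, 0.424) met the size rule, lower, in T cell-like cells. T cell-like cells made up 178 of 8737 control cells and 1038 of 9222 haplodeficient cells. Whether this relates to the member levels elsewhere was not tested.

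**Figure D5:**
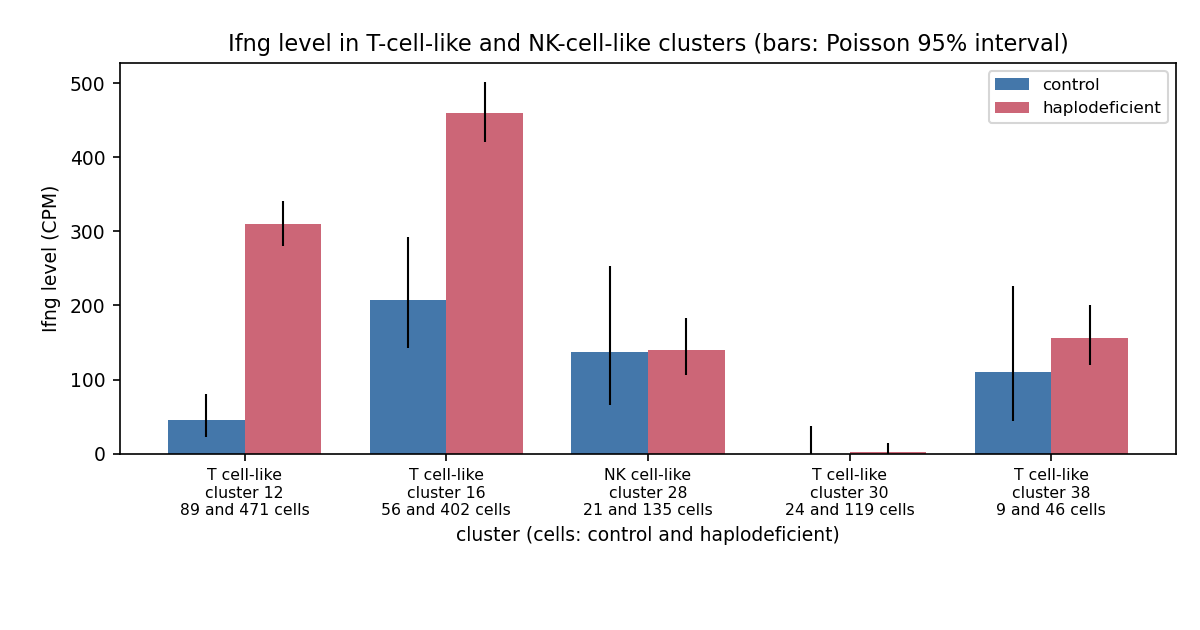
Level of Ifng (y axis, CPM) in the 4 T cell-like clusters and the NK cell-like cluster (x axis, with cells per library), control and haplodeficient bars with 95% Poisson intervals. The pairs are 45.1 and 310 CPM in cluster 12 and 208 and 460 CPM in cluster 16, and the NK cell-like pair is 137 and 140 CPM.

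Among stromal cells, fibroblast-like cells (109 and 118 cells) had Iigp1 at 681 and 615 CPM (0.903, 0.792 to 1.03). The class sum, with a ratio of 0.947, was 1.11 with doublets kept, 1.39 after thinning to 1000 UMIs and 1.50 as a mean of single cells. Iigp1 was present in 40.4% and 58.5% of these cells, and 5 control cells held 56.3% of its UMIs. Their Gbp5 was 31.4 and 14.3 CPM (18 and 13 UMIs), a ratio of 0.455 (0.205 to 0.983), and Irgm2 13.9 and 31.9 CPM (2.29, 1.02 to 5.79) from 8 and 29 UMIs. Of 8 members of 10 CPM, 2 had an interval above 1 and 1 below, against 8.2% and 8.69% of genes. In dendritic cell-like cells it was 1 and 1 of 7, against 11.2% and 17%, and in neutrophil-like cells none of 5, against 5.4% and 8.31%. Pericyte or smooth muscle-like cells (192 and 270 cells) had Iigp1 at 112 and 67.4 CPM (0.601, 0.432 to 0.837) and a sum of 185 and 160 CPM (0.861, 0.682 to 1.09). Iigp1 was the 1 of 6 members of 10 CPM with an interval below 1 and none lay above, against 6.69% and 8.42% of genes.

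The share of cells with any member UMI, compared at 1000 UMIs per cell because depth differed, was 69.2% and 66.7% in endothelial-like cells. It was lowest in the control in thick ascending limb-like cells, at 5.54% (3.79 to 7.77) beside 9.01% (6.78 to 11.7), and lowest in the haplodeficient library in neutrophil-like cells, at 8.92% (6.71 to 11.6) beside 11.5% (5.86 to 19.6) in the control. It was 11.4% and 19.9% in principal or connecting tubule-like, 12.7% and 22.7% in Wt1-positive, 16.6% and 26.2% in intercalated cell-like, 24.4% and 29.4% in thin limb-like and 6.97% and 10.7% in the distal convoluted tubule. The share was 25.3% and 25.2% in T cell-like and 15.4% and 15.7% in macrophage-like cells. Unthinned shares were 41.0% and 63.3% in thick ascending limb-like and 87.0% and 86.2% in endothelial-like cells. The thinned share with Iigp1 was 2.27% (0.983 to 4.42) and 7.66% (5.74 to 9.97) in thin limb-like cells, 1.07% (0.349 to 2.49) and 3.34% (2.02 to 5.17) in principal or connecting tubule-like cells and 0.179% (0.00452 to 0.991) and 1.06% (0.390 to 2.29) in thick ascending limb-like cells, the last from 1 and 6 cells. In the thin limb these intervals did not overlap, and in the other 2 classes they did.

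Genes around the members gave the following values. In distal convoluted tubule-like cells, 2 of 4 interferon-gamma targets other than GTPases of at least 50 CPM met the size rule, higher: the immunoproteasome subunit Psmb8 (56.2 and 163 CPM, 2.90) and the proteasome activator Psme2 (77.3 and 182 CPM, 2.35). So did 2 of 3 type I interferon targets, Isg15 (32.3 and 106 CPM, 3.28) and Bst2 (53.9 and 132 CPM, 2.44). The lists' median log2 ratios were 0.87 and 1.22 there, against 0.10 over all genes. In endothelial-like cells none of 14 interferon-gamma targets and none of 16 type I targets met the rule, with medians of 0.28 and 0.42. In T cell-like cells the type I targets Ifi27l2a (958 and 1950 CPM, 2.04) and Bst2 (69.0 and 160 CPM, 2.32) met it, higher, 2 of 7. Irf1 was 606 and 502 CPM in endothelial-like cells and 149 and 193 CPM in distal convoluted tubule-like cells. The interferon-gamma receptor subunit Ifngr1 was 103 and 120 CPM in endothelial-like and 32.7 and 53.5 CPM in distal convoluted tubule-like cells. Inflammasome genes that act with GBPs were of sufficient level for 3 of 11 in endothelial-like, 7 in macrophage-like and 4 in T cell-like cells, and none of those met the rule. Of 8 autophagy genes of sufficient level in T cell-like cells, 1 met it, lower: Lgals3, a lectin that binds damaged vacuoles (285 and 117 CPM).

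The genes whose levels over the 30 class-by-library points were most like the mean of the 10 members, by Pearson correlation among 7857 genes, were H2-Q4 (0.901), Patl2 (0.894), Trim69 (0.875), Impdh1 (0.854), H2-T22 (0.851), Xaf1 (0.851), Herc6 (0.839), Cd34 (0.828), Ifih1 (0.826) and Gm12185 (0.821). H2-Q4 and H2-T22 encode non-classical MHC class I molecules, Ifih1 an RNA sensor, Cd34 a sialomucin of endothelial cells, and Gm12185 is an IRG-related gene. The lowest were Prdx5 (−0.724) and Usp2 (−0.683), followed by Epb41, Id2 and Arhgap24. The points come from 2 libraries and 15 classes and are not independent.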

How the data were processed

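Single-cell RNA of injured kidneys was measured with 10x 3′ v3.1 chemistry in 1 control and 1 haplodeficient library. The authors deposited raw UMI counts per gene and barcode, made with Cell Ranger 4 per the file headers; the build mm10 comes from the submitters' processing notes. Barcodes and gene names are deposited as other columns. Of 32285 gene identifiers, 99.8% matched GENCODE M21.

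Cells had at least 500 UMIs and 200 genes and at most 50% mitochondrial UMIs. The highest Scrublet scores, 0.8% per 1000 cells, were removed as doublets (715 and 804 cells). Leiden clustering (scanpy 1.11.5, leidenalg 0.10.2) used 2000 variable genes without the members and interferon lists, 30 components, 15 neighbours and a resolution of 1, and for endothelial cells 20 components and 0.5. A cluster was named where at least 3 markers were detected in 10% of its cells at 2-fold, a scoring rule set after the data were seen. Counts were summed per class and library. Levels have exact Poisson, ratios exact conditional binomial and shares Clopper-Pearson 95% intervals, for counting error only. Fold changes on the log2 scale used a pseudocount of 5 CPM and understate low genes. Shares were compared after thinning each cell to 1000 UMIs, and free RNA was read from barcodes of at most 100 UMIs. With 1 library per group no test was run.

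The members were named for the work, and the members and gene lists were chosen with earlier results of these data known. Other genes were named where they met the size rule in the endothelial, macrophage, T cell, proximal tubule, highest-ratio and lowest-ratio classes, at most 3 each way per list, or by correlation with the members; genes named beyond these (such as Irf1, Ifngr1 and Cdh5) were chosen for their place in the pathway. The counting was checked on simulated Poisson counts only. Those leave out the spread between cells, so they do not check the intervals where few cells hold most UMIs, as for Iigp1. Promoter letters come from RefSeq tables. Some items are not reported here.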

Additional observations from a re-analysis of the deposited data

How the results depend on the processing

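The count of members higher by the size rule, 2, was 1 with a minimum of 1000 UMIs per cell, 1 with free RNA taken off and 9 from 10 CPM and 10 UMIs, where the count lower was 1. Of the summed ratios, distal convoluted tubule-like cells gave 1.98 at 25% mitochondrial UMIs, 1.96 with equal cluster weights, 1.58 thinned, 1.92 without Iigp1 and 2.01 for GBPs, all above 1. Endothelial-like cells gave 1.08 with each library clustered on its own, 0.881 with equal weights, 0.914 thinned, 0.921 as a mean of single cells, 1.20 without Iigp1, 1.26 for GBPs and 0.953 for IRGs. Injured tubule-like cells gave 0.997 with doublets kept, 1.13 at resolution 2 (other side of 1), 0.850 with the members left in the clustering, 0.621 for GBPs and 0.929 for IRGs. Macrophage-like cells gave 1.30 with equal weights, 0.978 thinned (other side of 1) and 1.25 for IRGs. Proximal tubule-like cells gave 1.07 at 25% mitochondrial UMIs, 1.48 with own clustering, 1.13 with median-of-ratios scaling, 1.08 with equal weights, 1.59 thinned, 0.663 for GBPs (other side of 1) and 1.57 for IRGs. T cell-like cells gave 1.17 for GBPs and 0.829 for IRGs. Over the settings planned, the ratio was 1.86 to 2.80 in thick ascending limb-like, 1.68 to 2.22 in principal or connecting tubule-like, 1.40 to 1.63 in thin limb-like, 1.61 to 2.30 in Wt1-positive and 1.67 to 1.96 in intercalated cell-like cells; the last had no value with own clustering. The sums without Iigp1, by family and with the endothelial part taken off were chosen after seeing the data. Where values moved, the cause was not tested. Members under 10 CPM rest on few UMIs, and depth limits them. No paired analysis was possible because each group had 1 library. No leave-one-out setting was possible for the same reason.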

Other observations

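Cells outside the named classes also held the 10 genes. Cluster 4, led by Psca, Mmp7 and Olfm4 (430 control and 520 haplodeficient cells), stood at 173 and 174 CPM, and the interval of its ratio held 1 (0.924 to 1.10). Cluster 14, led by the intercalated cell genes Slc26a4 and Atp6v1g3 (293 and 233 cells), stood at 189 and 278 CPM (1.48, 1.39 to 1.57). Cluster 34, with endothelial and pericyte genes such as Sox17 and Rgs5 (44 and 72 cells), stood at 1422 and 1151 CPM (0.809, 0.749 to 0.875). NK cell-like cells (21 and 135 cells) stood at 179 and 240 CPM (1.34, 0.748 to 2.61), and monocyte-like cells (55 and 375 cells) at 121 and 118 CPM (0.974, 0.663 to 1.48). In NK cell-like cells no Iigp1 UMI was found in 21 and 135 cells.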
